A study of Mus musculus with 4 samples.

Results

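Macrophages that meet interleukin 4 or interleukin 13 take on a state called alternative activation, and a small set of genes led by arginase 1 (Arg1) is used to recognise it. The genes described here are Arg1, Mrc1, Chil3, Tgm2, Fn1, Cdh1, Clec10a and Odc1, taken by name, with earlier results of these data known. The annotation of the array gave 7 of these 8 genes exactly 1 probe set each, out of 8251 genes that it named, and Clec10a was not analysed here. Their RNA was measured in peritoneal exudate cells of female BALB/c mice aged 6 to 8 weeks, drawn into the peritoneal cavity by 2 ml of 3% thioglycolate given 4 days before harvest. All cells stood overnight in a serum-free medium with ITS supplement, 1 group with the PBS vehicle and 1 group with porcine TGFb2 (5 ng, with no volume given), and only adherent cells, labelled as more than 95% positive for the macrophage marker F4/80, went into RNA extraction. Each group held 2 arrays, numbered 1 and 2 as in the labels. Whether these were separate cultures or animals is not stated, so p-values cover the spread between these arrays alone, which may be technical. Neither group received interleukin 4 or interleukin 13, and the comparison asked what the cytokine TGFb2, which the series links to a tolerogenic macrophage, does to these genes.

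In alternative activation, interleukin 4 or 13 binds a receptor that contains the Il4ra chain, and the transcription factor Stat6 carries the signal to the nucleus. Arginase 1 splits arginine into urea and ornithine and so competes with the nitric oxide synthase Nos2 for the same amino acid, while ornithine decarboxylase (Odc1) turns ornithine into putrescine, the start of polyamine synthesis. The mannose receptor (Mrc1) and the galactose-binding lectin Clec10a take up glycoproteins, and the chitinase-like protein Chil3 (Ym1) is secreted by mouse macrophages. Transglutaminase 2 (Tgm2) crosslinks proteins, fibronectin (Fn1) is a matrix protein that macrophages also make, and E-cadherin (Cdh1) joins cells to one another. TGF-beta acts through other receptors and the Smad proteins, and is known to raise arginase activity in macrophages.

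The values are MAS5 signals, an intensity per probe set on a linear scale. Differences were taken as TGFb2 minus PBS on the scale log2(signal + 15) and tested with limma over 7453 probe sets, with p-values adjusted by the Benjamini-Hochberg method over all of them and a threshold of 0.05. On this scale a difference of 1 is close to a doubling for a bright probe set and understates the change of a dim one. All 10 macrophage markers looked up lay above the level filter, a signal of 24.0, and so did all 7 genes described here. The 4 arrays had equal trimmed means of 150.1, and log2 signals correlated at 0.979 within the PBS group, at 0.968 within the TGFb2 group and at 0.954 to 0.966 across the groups.

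None of the 7 genes passed the threshold in limma, 0 in either direction, where 1.18% of all tested probe sets did (0.818% higher and 0.362% lower with TGFb2), and 2 of the 7, Arg1 and Fn1, had an unadjusted p under 0.05, as did 11.6% of all tested probe sets. The groups did not overlap for 4 of the 7 (57.1%), with TGFb2 above PBS for Arg1, Fn1 and Odc1 and below it for Mrc1, where 42.8% of all tested probe sets were free of overlap (21.1% with TGFb2 above and 21.7% below). The log2 mean was higher with TGFb2 for 5 genes and lower for Mrc1 and Chil3, beside 49.8% of all tested probe sets with a higher one. The median of the 7 log2 differences was 0.15, beside a median of 0.00 over all tested probe sets.

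**Figure D1:**
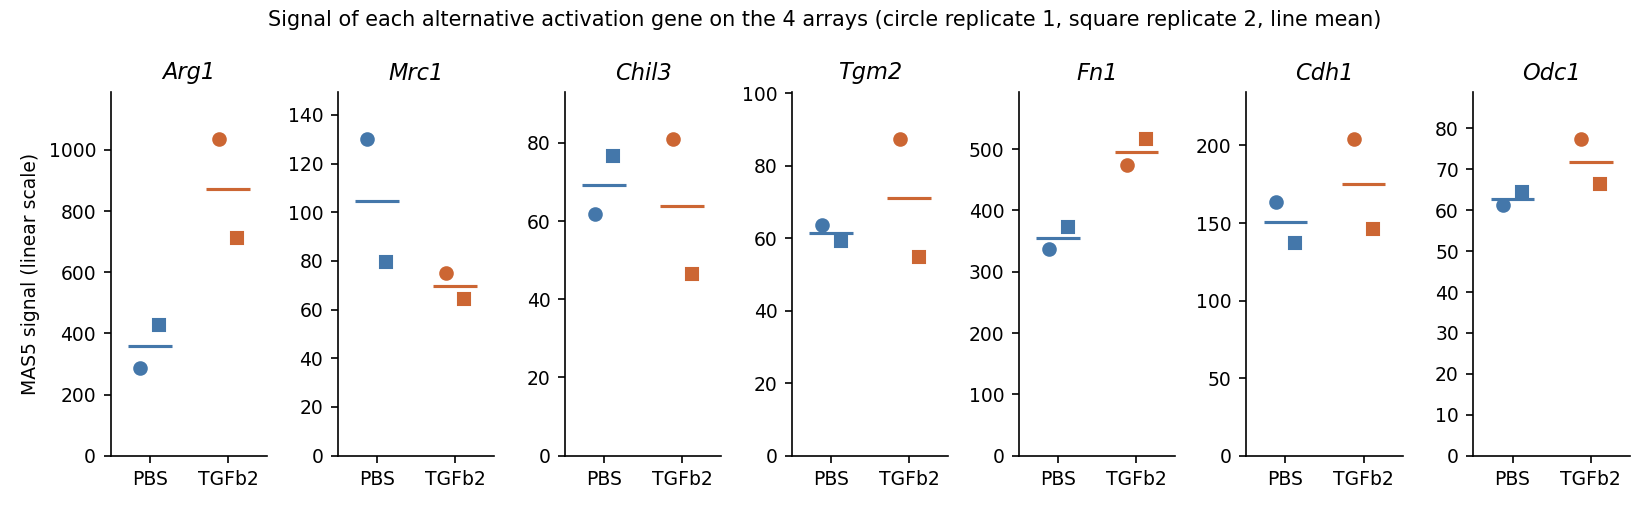
MAS5 signal on a linear scale (vertical axes, each starting at 0) for 7 alternative activation genes, 1 panel per gene, on the PBS arrays (blue) and the TGFb2 arrays (orange); circles are replicate 1, squares replicate 2 and lines the mean of 2 arrays. Arg1 and Fn1 lie higher on both TGFb2 arrays than on either PBS array, Odc1 does so by a small margin, Mrc1 lies lower, and the groups overlap for Chil3, Tgm2 and Cdh1.

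Arginase 1 had the largest difference of the 7 genes. Its probe set (93097_at) gave signals of 287.1 and 427.9 on PBS replicates 1 and 2 and of 1034.3 and 711.5 on TGFb2 replicates 1 and 2. Both TGFb2 arrays were above both PBS arrays, and the lower TGFb2 array was well clear of the higher PBS array. The means were 358 ± 99.6 with PBS and 873 ± 228 with TGFb2 (SD over n = 2 arrays, here and wherever ± is not marked SE), a ratio of 2.44. The log2 difference was 1.26 with a standard error of 0.25 and a 95% interval of 0.68 to 1.83 (limma, unadjusted p = 0.00106, adjusted p = 0.0658), which missed the threshold after adjustment. By size it was the 63rd highest difference of the 7453 probe sets, and by p it stood at place 120.

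The replicates of Arg1 lay apart within each group. PBS replicate 2 was 1.49 times PBS replicate 1, and TGFb2 replicate 1 was 1.45 times TGFb2 replicate 2. Without PBS replicate 2 the log2 difference was 1.53 and passed (limma adjusted p = 0.0249), whereas without PBS replicate 1 it was 0.98 (adjusted p = 0.197). Without TGFb2 replicate 1 it was 0.99 (adjusted p = 0.278) and without TGFb2 replicate 2 it was 1.52 (adjusted p = 0.0973), each time with the lone array assumed to vary like the other group. The direction was the same under all 4 omissions, and the side of the threshold changed with PBS replicate 2.

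**Figure D2:**
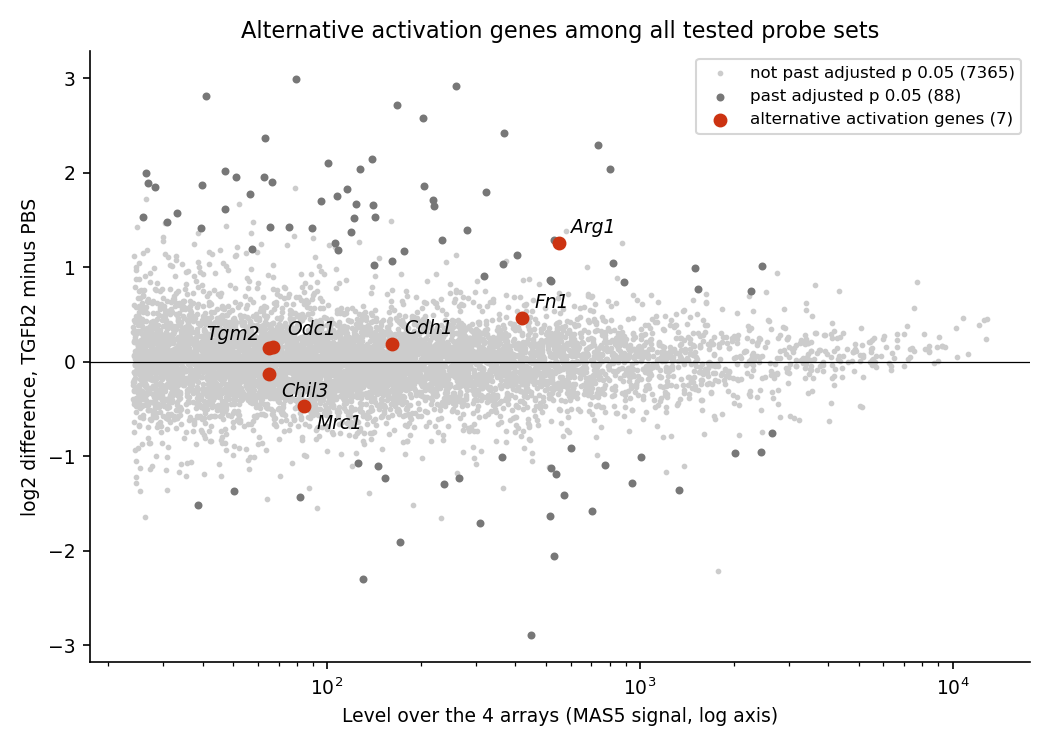
Log2 difference, TGFb2 minus PBS (vertical axis), against the level over the 4 arrays (MAS5 signal, log axis) for the 7453 tested probe sets; dark points are the 88 past an adjusted p of 0.05, pale points the rest, and red points the 7 alternative activation genes. Arg1, at 1.26, stands above most probe sets of its level, and the other 6 genes lie between -0.47 and 0.46, inside the main body of points.

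The lectin and the chitinase-like gene had lower means with TGFb2. Mrc1 (103226_at), the mannose receptor, had signals of 129.9 and 79.4 with PBS and of 75.2 and 64.5 with TGFb2. The groups were apart by a narrow gap, between 79.4 and 75.2, and most of the difference in means came with PBS replicate 1. Its log2 difference was -0.47 ± 0.25 (SE), with a 95% interval of -1.04 to 0.11 (limma, adjusted p = 0.53), and it was -0.16 without PBS replicate 1 and -0.77 without PBS replicate 2. Chil3 (92694_at) had signals of 61.9 and 76.7 with PBS and of 80.9 and 46.6 with TGFb2. The TGFb2 arrays held both its highest and its lowest value, and the log2 difference was -0.13 ± 0.26 (SE, 95% interval -0.74 to 0.49, limma adjusted p = 0.91). That difference was -0.45 without TGFb2 replicate 1 and 0.19 without TGFb2 replicate 2, so its sign rested on single arrays.

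Odc1 (160084_at), the step after arginase toward polyamines, had signals of 61.3 and 64.4 with PBS and of 77.3 and 66.3 with TGFb2. Both TGFb2 arrays were above both PBS arrays, the lower one by a margin smaller than the gap between the PBS arrays. The ratio of means was 1.14 and the log2 difference 0.15 ± 0.20 (SE), with a 95% interval of -0.31 to 0.62 (limma adjusted p = 0.82), and it was 0.06 and 0.25 without TGFb2 replicates 1 and 2.

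Among the genes of matrix and cell contact, fibronectin had replicates close together in both groups. Fn1 (92852_at) had signals of 336.8 and 372.6 with PBS and of 473.7 and 515.7 with TGFb2. Within each group the arrays were near each other, at ratios of 1.11 and 1.09, and the groups did not overlap. The means were 355 ± 25.3 and 495 ± 29.7, a ratio of 1.39, with a log2 difference of 0.46 ± 0.16 (SE, 95% interval 0.09 to 0.83, limma unadjusted p = 0.0207, adjusted p = 0.30). It ran from 0.39 to 0.53 when each array was left out in turn and passed in none of these fits.

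Tgm2 and Cdh1 each had 1 high TGFb2 array. Tgm2 (93352_at) had signals of 63.6 and 59.2 with PBS and of 87.2 and 54.7 with TGFb2, so TGFb2 replicate 2 lay below both PBS arrays. Cdh1 (98140_at) had signals of 163.8 and 137.1 with PBS and of 203.9 and 145.9 with TGFb2, where TGFb2 replicate 2 lay between the PBS arrays. The log2 differences were 0.14 ± 0.24 (SE, 95% interval -0.42 to 0.71) for Tgm2 and 0.19 ± 0.21 (SE, 95% interval -0.31 to 0.68) for Cdh1, with limma adjusted p of 0.88 and 0.79. Without TGFb2 replicate 1 they were -0.13 and -0.04.

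The gap between the TGFb2 arrays ran the same way in most of these genes. TGFb2 replicate 1 was above TGFb2 replicate 2 for 6 of the 7, all but Fn1, as it was for 53.6% of all tested probe sets, and PBS replicate 1 was above PBS replicate 2 for 3 of the 7. In log2 units TGFb2 replicate 1 exceeded replicate 2 by 0.64 for Chil3, 0.55 for Tgm2, 0.53 for Arg1 and 0.44 for Cdh1, and by 0.18 for Mrc1 and Odc1. For Chil3, Tgm2, Cdh1 and Odc1 this gap within the treated group was larger than the difference between the groups. For Arg1 and Fn1 the difference between the groups, 1.26 and 0.46, was larger than the gap within either group, which reached 0.55 and 0.14. For Mrc1 the gap within the PBS group, 0.62, was larger in size than the difference between the groups, -0.47.

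The 95% intervals set what these arrays can show for each gene. Those of Chil3, Tgm2, Cdh1, Odc1 and Fn1 stayed between -1 and 1, so a doubling or a halving on this scale lay outside them, while that of Mrc1 reached -1.04 and that of Arg1 reached 1.83. They are intervals for single genes, with no allowance for the number of genes tested.

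Around arginase, 26 other genes of arginine and polyamine metabolism were looked up, of which 18 were on the array and 13 above the filter. Of these 13, 0 rose and 0 fell in limma (1.18% of all tested probe sets passed), 4 had an unadjusted p under 0.05 (11.6% of all), and the median log2 difference was 0.31 (0.00 over all), with 9 higher (49.8% of all) and 4 lower in mean. The median was 0.10 without PBS replicate 1 and 0.17 without the filter. Gatm, which uses arginine to make the creatine precursor guanidinoacetate, had signals of 362.0 and 347.3 with PBS and of 591.6 and 694.5 with TGFb2. The groups were far apart relative to their spread, and the log2 difference of 0.83 ± 0.16 (SE) stopped just short of the threshold (limma adjusted p = 0.0655). Slc7a2, a transporter that brings arginine into macrophages, had signals of 53.9 and 49.3 with PBS and of 84.7 and 118.9 with TGFb2, a log2 difference of 0.80 ± 0.22 (SE, limma adjusted p = 0.19). Its TGFb2 arrays were both above its PBS arrays.

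Other genes of this list were singled out after their values were seen. Arg2, the mitochondrial arginase, had signals of 112.1 and 154.8 with PBS and of 172.3 and 162.1 with TGFb2 in its brighter probe set, a log2 difference of 0.31 ± 0.20 (SE, limma adjusted p = 0.62). Sat1, which acetylates polyamines for breakdown and export, had 1283.8 and 1328.9 with PBS and 2013.8 and 2021.6 with TGFb2, a log2 difference of 0.62 ± 0.12 (SE, adjusted p = 0.0688). Both groups of Sat1 were tight and did not overlap. Slc7a7, a chain of a transporter that exports arginine and other basic amino acids, differed by 0.61 ± 0.17 (SE, adjusted p = 0.19). Nos2, which competes with arginase for arginine, had signals of 7.8 and 18.3 with PBS and of 16.7 and 15.1 with TGFb2, all under the filter level, and was not tested. The spermidine synthase Srm differed by 0.13 (adjusted p = 0.83) and Oaz2, an inhibitor of ornithine decarboxylase, by -0.24 (adjusted p = 0.65).

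Of 23 further genes used as markers or mediators of alternative activation, 14 were on the array and 10 above the filter. In limma 1 fell, 0 rose and 9 did not pass, beside 0.362% of all tested probe sets lower and 0.818% higher past the threshold. An unadjusted p under 0.05 was found for 5 (11.6% of all), and 2 of the 10 had a higher mean with TGFb2 (49.8% of all) and 8 a lower one. The 5 included Ccl22, with signals of 27.7 and 73.2 with PBS and of 15 and 16.6 with TGFb2. Both TGFb2 signals lay under the filter level. Ccl22 passed the filter through its PBS signals, so its direction is not independent of the filter. Their median log2 difference was -0.51, opposite in sign to the median of 0.15 for Arg1 and the other 6 genes, and -0.16 without the filter. That contrast in sign did not hold without TGFb2 replicate 1, when the median of the further genes was -0.34. Mrc1, Chil3, Tgm2 and Cdh1 were then below 0 (-0.56, -0.45, -0.13 and -0.04). Arg1, Fn1 and Odc1 stayed above it (0.99, 0.52 and 0.06). The gene that fell was Il1rn, the interleukin 1 receptor antagonist, from signals of 1969.2 and 2342.5 to signals of 710.6 and 961.9, a log2 difference of -1.36 ± 0.18 (SE, adjusted p = 0.0241) that lost its call without TGFb2 replicate 1 (-1.15, adjusted p = 0.122), without the filter (adjusted p = 0.107) or without the intensity trend of the variance (adjusted p = 0.0872). Among the rest, chosen after their values were seen, the nuclear receptor Pparg had signals of 172.1 and 134.4 with PBS and of 98.1 and 87.8 with TGFb2 (log2 difference -0.63 ± 0.20 SE, adjusted p = 0.24). Stab1, a scavenger receptor, had 58.6 and 46.8 with PBS and 77.8 and 73.4 with TGFb2 (0.43 ± 0.21 SE, adjusted p = 0.50). Pparg was lower and Stab1 higher on both TGFb2 arrays, so these marker genes did not all lean one way.

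Of 16 genes of the interleukin 4 and 13 signalling chain, 15 were on the array and 11 above the filter. In limma 0 rose, 0 fell (1.18% of all tested probe sets passed) and 1 had an unadjusted p under 0.05 (11.6% of all), and the median log2 difference was 0.06, which was -0.13 with the filter at the 60th percentile, -0.05 and 0.16 without PBS replicates 1 and 2, and -0.04 without TGFb2 replicate 1. The receptor chain Il4ra had signals of 72.5 and 61.9 with PBS and of 150.5 and 132.1 with TGFb2 in its brighter probe set. Those groups were well apart, with a log2 difference of 0.93 ± 0.19 (SE, limma adjusted p = 0.0748), while a dimmer probe set near the filter level differed by 0.02 (adjusted p = 0.99). Socs3, a feedback inhibitor of cytokine signalling whose probe set may share probes with related genes, had 38.8 and 28.7 with PBS and 60.1 and 39.8 with TGFb2, a log2 difference of 0.40 ± 0.27 (SE, adjusted p = 0.63) that was 0.18 and 0.63 without TGFb2 replicates 1 and 2. Stat6, singled out after its values were seen, had 576.5 and 531.8 with PBS and 381.1 and 522.8 with TGFb2 (-0.30 ± 0.19 SE, adjusted p = 0.61), and the signals of interleukin 4 and interleukin 13 themselves lay under the filter level.

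**Figure D3:**
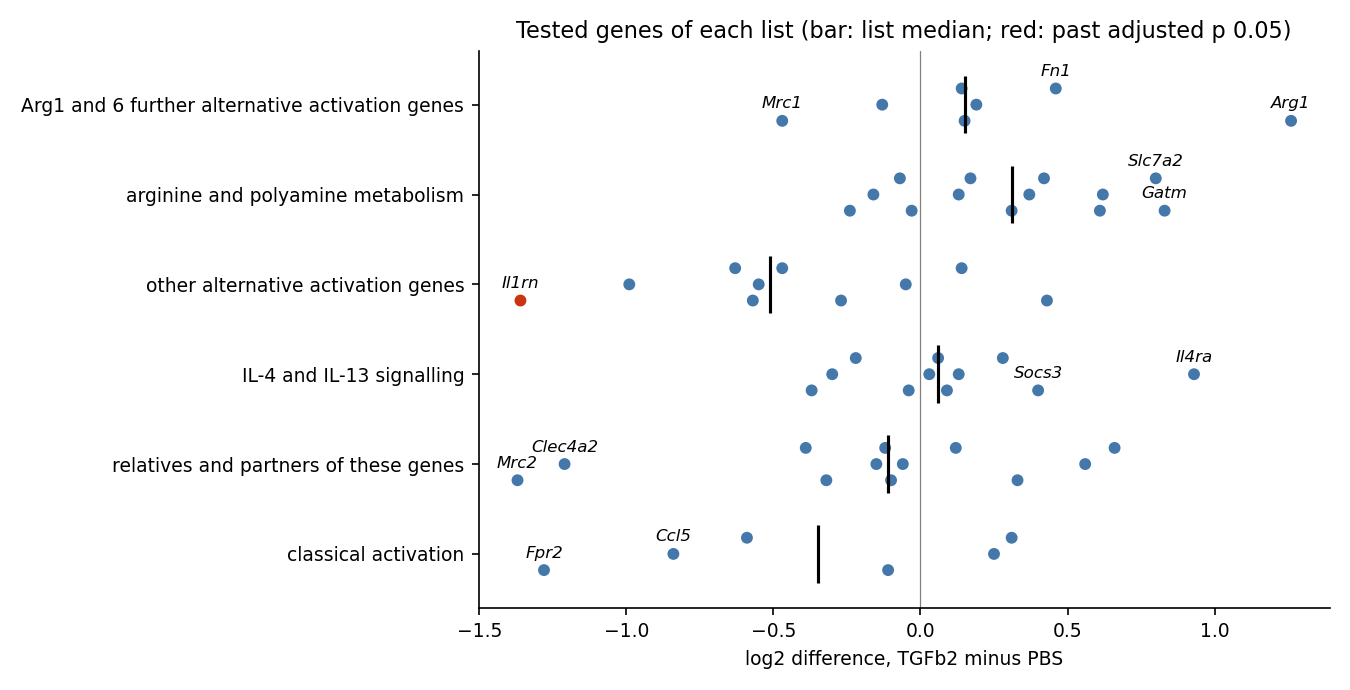
Log2 difference, TGFb2 minus PBS (horizontal axis), of every tested gene in 6 groups of genes, 1 point per gene by its brightest tested probe set; bars are group medians and red marks the 1 gene past an adjusted p of 0.05, Il1rn. Arg1 at 1.26 is the highest point of its group, Gatm and Il4ra are the highest of theirs, and the further alternative activation genes lie mostly to the left of 0.

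Of 29 relatives and binding partners of these proteins, 24 were on the array and 12 above the filter. In limma 0 rose, 0 fell (1.18% of all tested probe sets passed) and 5 had an unadjusted p under 0.05 (11.6% of all), with a median log2 difference of -0.11 that was 0.01 without TGFb2 replicate 1. Mrc2, the collagen-binding relative of the mannose receptor, had signals of 62.8 and 38.6 with PBS and of 13 and 7.3 with TGFb2, which lie under the filter level. It passed the filter through its PBS signals, so its direction is not independent of the filter, and it was no longer tested when either PBS array was left out. Its log2 difference was -1.37 ± 0.31 (SE, limma adjusted p = 0.112) and ran from -2.34 without the pseudocount to -0.65 with 4 times the pseudocount. Clec4a2, an inhibitory C-type lectin, had 80.5 and 162.8 with PBS and 33.1 and 51.4 with TGFb2, a log2 difference of -1.21 ± 0.32 (SE, adjusted p = 0.176) that was -0.76 without PBS replicate 2 (adjusted p = 0.691). Both lectins were lower on each TGFb2 array than on either PBS array. Itga5 and Ctnnb1 were singled out after their values were seen. Itga5, an integrin chain of the fibronectin receptor, had 60.2 and 70.2 with PBS and 103.3 and 120.0 with TGFb2 (0.66 ± 0.20 SE, adjusted p = 0.22), and beta-catenin (Ctnnb1), which binds the tail of E-cadherin, had 3665.7 and 3758.9 with PBS and 4686.7 and 4623.8 with TGFb2 (0.33 ± 0.10 SE, adjusted p = 0.26).

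Genes of classical activation, the state that Nos2 and inflammatory cytokines mark, were looked up beside them. Of 15, 14 were on the array and 6 above the filter, 0 rose and 0 fell in limma (1.18% of all tested probe sets passed), and 2 had an unadjusted p under 0.05 (11.6% of all). The median log2 difference of these 6 was -0.35, and it was 0.21 without the filter, when all 14 were counted, -0.03 without PBS replicate 2 and -0.63 without TGFb2 replicate 2. The formyl peptide receptor Fpr2 had signals of 22 and 87.5 with PBS and of 7.4 and 13.6 with TGFb2, which is -1.28 ± 0.47 on the log2 scale (SE, adjusted p = 0.35). Only PBS replicate 2 of Fpr2 lay above the filter level, so the gene was tested through that array alone, and the difference was -2.02 without PBS replicate 1. The chemokine Ccl5 had 34.8 and 104.4 with PBS and 19.9 and 38.1 with TGFb2, a log2 difference of -0.84 ± 0.42 (SE, adjusted p = 0.51) that was -1.47 without PBS replicate 1 and -0.21 without PBS replicate 2. PBS replicate 2 was the highest array for both, far above PBS replicate 1.

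Markers of other cells moved with the treatment in places. The summed signal of the 10 macrophage markers was 16829 and 17855 with PBS and 18695 and 19306 with TGFb2. Both TGFb2 arrays were higher, but Cd68 alone gave 6377.8 and 5851 with PBS and 7363 and 6991.3 with TGFb2. Without Cd68 the sums overlapped between the groups. Of the 10 markers 6 were higher and 4 lower with TGFb2, and 0 passed in limma (1.18% of all tested probe sets passed). Their median log2 difference was 0.38. An unadjusted limma p under 0.05 was found for 5 of them (11.6% of all tested probe sets). These were Fcgr1, Mertk, Itgam, Msr1 and Csf1r, all higher with TGFb2. Of 10 neutrophil markers 3 lay above the filter and the sum was 330.8 and 383.3 with PBS and 786.0 and 856.5 with TGFb2. S100a8, a calgranulin, rose (limma adjusted p = 0.0241), while the other 9 summed to 202.1 and 172.4 with PBS and to 235.4 and 177.3 with TGFb2, overlapping between the groups, and the granulocyte surface marker Ly6g stayed at or below 11.7. Of 8 markers of fibroblasts, a source of fibronectin, 6 lay above the filter, 3 higher and 3 lower in mean with TGFb2. The sum of the 8 was 2216 and 1546 with PBS and 1637 and 1447 with TGFb2, overlapping between the groups. Col1a1 rose and Dcn fell in limma (adjusted p = 0.0219 and 0.0259). Dcn alone gave 1130.5 and 746.8 with PBS and 318.7 and 256.5 with TGFb2. Its fall weighed on the sum, so the overlap does not show the other fibroblast markers to be unchanged. Without Dcn both TGFb2 sums lay above both PBS sums. Col1a1 gave 144.1 and 142.2 with PBS and 374.1 and 369.6 with TGFb2 in its brightest probe set. Another Col1a1 probe set had a log2 difference of 2.72 (limma adjusted p = 0.00176). Col1a2 differed by 0.16 in its brightest probe set (limma adjusted p = 0.779). A dimmer Col1a2 probe set, not counted here, rose by 1.86 (limma adjusted p = 0.0175). Of 9 markers of mesothelium and epithelium, cells that can carry E-cadherin, 3 lay above the filter, and the sum was 210.3 and 188.7 with PBS and 246.1 and 148.1 with TGFb2, again overlapping, while Epcam stayed at or below 5.1. The sums of the eosinophil, B cell, T cell, mast cell and dendritic cell markers overlapped between the groups too, and 0 of the 4 eosinophil markers on the array lay above the filter. The part of these cells in the values of Arg1, Fn1 and Cdh1 was not tested, and in bulk RNA a change in the number of cells of a type and a change in RNA per cell cannot be told apart.

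Genes with a pattern like that of Arg1 were ranked by the root mean square distance of their log2 values, each centred on its own mean over the 4 arrays, from those of Arg1, among 5638 other tested genes. Over only 4 arrays many genes come close, and the ranking is a description without a test. The nearest was Phlda3, a p53-induced inhibitor of Akt signalling, at a distance of 0.101, with signals of 54.2 and 73.8 with PBS and of 194.8 and 153.2 with TGFb2. Next came the secreted glutathione peroxidase Gpx3 at 0.128, with 48.6 and 67.9 against 157.9 and 126.5. Each had the same order of arrays as Arg1, lowest on PBS replicate 1 and highest on TGFb2 replicate 1. The matrix Gla protein Mgp (distance 0.144), the collagen chain Col15a1 (0.178) and Nrep (0.181) followed. On the PBS arrays Mgp read 7.3 and 18.4, under the filter level, so its place depends on the pseudocount. It passed the filter through its TGFb2 signals of 67.4 and 54.1, so its direction is not independent of the filter. Mgp was no longer tested when either TGFb2 array was left out.

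**Figure D4:**
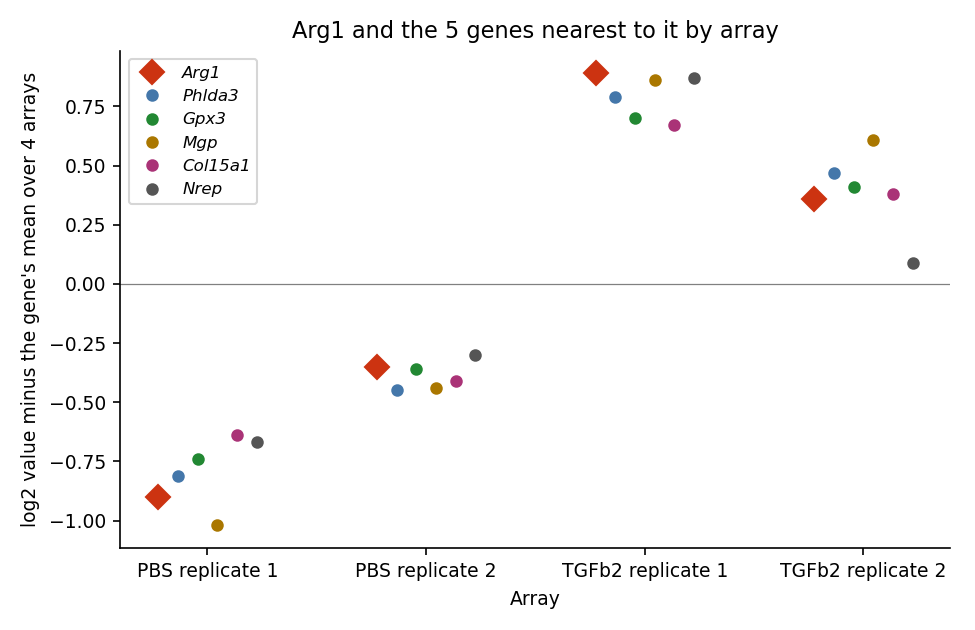
Log2(signal + 15) minus each gene's own mean over the 4 arrays (vertical axis) on each array (horizontal axis) for Arg1 (red diamonds) and the 5 genes nearest to it (circles). All 6 genes are lowest on PBS replicate 1 and highest on TGFb2 replicate 1, and Nrep departs most from Arg1 on TGFb2 replicate 2, at 0.09 against 0.36.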

How the data were processed

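The 4 arrays (2 PBS, 2 TGFb2) were 1-colour, with biotin-labelled cRNA. The deposited values are probe set intensities made with MAS5 (version not stated), per the submitters' processing notes, and no detection calls were used here. Of 12488 probe sets, 66 controls were left out, and genes were named from the platform annotation where a probe set had 1 symbol (10833). Symbols were looked up by gene ID in the GRCm38.p6 gene table, where 10817 were found and 0 changed. Signals were taken to log2(signal + 15), 10% of the 2% trimmed mean, and probe sets whose mean on that scale was at or above the 40th percentile were tested (7453, for 5639 genes). limma 3.58.1 in R 4.3.3 (lmFit, eBayes with an intensity trend, 2 residual and 5.6 prior degrees of freedom) compared TGFb2 with PBS, two-sided, after checks on simulated data. A gene in a list was counted by its brightest tested probe set. Named beyond the 7 genes were, per list, up to 2 genes per direction past the threshold (or the 2 with the largest difference where 0 passed) and the 5 genes nearest Arg1; other names, cell type markers included, were chosen after their values were seen. The genes and lists were chosen with earlier results of these data known. Between 52 and 98 probe sets had identical values in any 2 arrays, so all arrays were kept. The number of arrays limits the precision.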

Additional observations from a re-analysis of the deposited data

How the results depend on the processing

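With 2 arrays per group the calls depended on the settings, and for values that changed call or direction the cause was not tested unless stated. The count over all probe sets, 88, was 57 without a pseudocount, 6 without the filter on dim probe sets, where more probe sets share the adjustment, 16 without the intensity trend and 10 to 51 when each array was left out in turn. Of the 7 genes 0 passed under quantile normalization, cyclic loess, either pseudocount, either filter and the fit without a trend, and 0 to 1 with an array left out, the 1 being Arg1 without PBS replicate 2. Il1rn was the 1 call among the further alternative activation genes, and 0 passed without the filter, without the trend or without TGFb2 replicate 1, in a range of 0 to 1 over the arrays left out. Signs turned for Tgm2 (-0.13) and Cdh1 (-0.04) without TGFb2 replicate 1 and for Chil3 (0.19) without TGFb2 replicate 2. With an array left out, log2 differences ran from -0.13 to 0.42 for Tgm2, from -0.04 to 0.41 for Cdh1 and from -0.45 to 0.19 for Chil3. Phlda3, named for its likeness to Arg1, passed in 4 of 12 alternatives. At the 60th percentile filter Chil3, Tgm2 and Odc1 were no longer tested.

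The labels number the arrays 1 and 2 in both groups without saying what the number shares, and differences between replicates 1 and 2 correlated at 0.15 between the groups over all tested probe sets. With the replicate number as a block 320 probe sets passed, among them 1 of the 7 genes, Arg1 (limma adjusted p = 0.00255), 2 of the arginine and polyamine list, 2 of the further alternative activation genes, 1 of interleukin 4 and 13 signalling and 2 of the relatives and partners. By number the log2 difference of Arg1 was 1.80 for replicate 1 and 0.71 for replicate 2. Its gap of replicate 1 minus 2 was -0.55 with PBS and 0.53 with TGFb2, in opposite directions. With 1 residual degree of freedom and 2 arrays per number, the pairing is not established.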
